A study of Danio rerio with 2 samples.

Results

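The 8 genes described here, btg1, btg2, btg3, cdkn1a, cdkn1bb, cdkn1ca, ccnd1 and ccnd2a, act on the decision of a cell to stay in the division cycle or to leave it, and they were chosen by symbol out of 27771 gene identifiers. All 8 symbols were found, each at 1 identifier: ENSDARG00000027249 for btg1, ENSDARG00000020298 for btg2, ENSDARG00000069065 for btg3, ENSDARG00000076554 for cdkn1a, ENSDARG00000054271 for cdkn1bb, ENSDARG00000010878 for cdkn1ca, ENSDARG00000101637 for ccnd1 and ENSDARG00000051748 for ccnd2a. Their RNA was counted in single cells from the trunks of zebrafish embryos at 60 hpf and at 28 hpf (hours post fertilization), with 1 library per stage. At both stages the embryos carried the transgene Tg(olig2:dsRed), in which the olig2 regulatory element drives a red fluorescent protein, and came from a cross of this line to wild type. The fluorescent cells of pooled, dissociated trunks were sorted, so a library holds olig2-expressing progenitors, descendants that still carry the protein, and other cells that passed the gate. The 42 hpf stage of the study was not analysed here.

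In a dividing cell, D-type cyclins bind the kinases Cdk4 and Cdk6 in the G1 phase, and this complex inactivates the retinoblastoma protein and so opens the way to DNA replication. The Cip/Kip inhibitors, which the cdkn1 genes encode, bind cyclin and kinase complexes and hold the cell in G1, and the proteins of the BTG/TOB family restrain proliferation in part by recruiting the CCR4-NOT complex, which shortens the poly(A) tails of mRNAs. In the ventral spinal cord, olig2-expressing progenitors divide, pass through a short-lived precursor state that expresses proneural genes, and give rise to motor neurons that no longer divide, and later to oligodendrocyte precursors, which can divide.

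Cells with at least 1000 detected genes were used, 5517 of 7905 at 60 hpf and 8390 of 10124 at 28 hpf, with a median of 6809 and 7375.5 UMIs (unique molecular identifiers, each counted as 1 captured RNA molecule). A level is the summed UMIs of a gene over the cells of a group per 10000 UMIs of that group, with the exact Poisson 95% interval in brackets. A share of cells is the percent with at least 1 UMI of the gene after each cell was thinned to 2000 UMIs, with the exact binomial interval where an interval is given. Because each stage is represented by 1 library, differences were not tested, and every interval covers counting error only, not the difference between embryos or libraries. Free RNA in droplets also gives UMIs, so the values of erythroid-like cells are given for comparison, although these cells may express some of the genes. Their median was 31210.5 UMIs at 60 hpf and 33210 at 28 hpf, far above the medians over all cells. Free RNA may be a smaller part of such deep cells, so their values may understate it for the other groups. A total of 16 barcodes were shared between the cells kept from both libraries.

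The groups were rebuilt by clustering each library without the 8 genes, without top2a and without the other cell cycle genes listed for this work, and "-like" marks a name that rests on marker lists. Progenitor-like cells numbered 391 at 60 hpf and 2099 at 28 hpf, precursor-like cells 134 and 880, and neuron-like cells 2546 and 2189, of which 2023 and 769 were motor neuron-like. The markers were read in summed levels. The neuronal precursor list (neurog1, neurod4, insm1a and others) was at 113 in precursor-like and 20.2 in progenitor-like cells at 60 hpf, and at 95.7 and 20.4 at 28 hpf, while the progenitor list (olig2, sox2, her genes and others) stayed as high in the precursor-like cells, at 184 against 121 at 60 hpf and 107 against 99.3 at 28 hpf. The precursor-like cells thus expressed the markers of both states. A list of 17 G2 and M phase features, top2a among them, was at 1.55 in precursor-like and 11.2 in progenitor-like cells at 60 hpf, and at 1.07 and 20.2 at 28 hpf. The share with top2a, the topoisomerase made in S, G2 and M phases, was 1.5% in precursor-like and 6.43% in progenitor-like cells at 60 hpf, and 0.573% and 17.1% at 28 hpf. In motor neuron-like cells it was 0.157% at 60 hpf and 1.08% at 28 hpf. Erythroid-like cells had 2.64% and 2.08%, but they are no neutral background for top2a. At 60 hpf 198 of them formed a cluster with top2a in 7.07%, the G2 and M phase list at 11.9 and cdk1 and cks2 among its leading genes, while the other 332 had top2a in 0% (upper bound 1.1%), and at 28 hpf their G2 and M phase list was at 6.37. The interval of the precursor-like share at 60 hpf, 0.183 to 5.33%, overlapped that of progenitor-like cells, 4.2 to 9.34%.

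Most of the 8 genes were lower or near level at each step of this path, and none was called higher. The largest ratio above 1 was that of cdkn1ca in precursor-like over progenitor-like cells at 60 hpf, at 1.87-fold. The order of the groups rests on markers within 1 library per stage, and descent was not tested. The study states that motor neuron generation is largely over before 60 hpf. The motor neuron-like cells of 60 hpf therefore need not come from precursor-like cells of that stage. A gene was called apart if its levels differed by 2-fold or more and it had 20 or more UMIs in one of the groups compared. Between precursor-like and progenitor-like cells at 60 hpf, 0 of the 8 were called higher and 3 lower (cdkn1a, ccnd1 and ccnd2a), where 7.34% of 9048 genes were higher and 23.9% lower, and the median log2 ratio was -0.58 over the 8 and -0.09 over all genes. At 28 hpf 0 were higher and 2 lower (cdkn1a and ccnd1), against 8.06% higher and 21.6% lower of 14055 genes, with medians of -0.33 and -0.11. These counts were near the background shares. Between neuron-like and precursor-like cells at 60 hpf, 0 were higher and 3 lower (btg2, cdkn1ca and ccnd1), against 32.0% higher and 10.8% lower of 14457 genes, with medians of -0.90 and 0.37. At 28 hpf 0 were higher and 1 lower (btg2), against 33.5% and 4.77% of 16176 genes, with medians of -0.20 and 0.43. None of the 8 was among the many genes called higher in neuron-like cells at either stage. A gene enters this background with 20 or more UMIs in either group, so it can have very few in the 134 precursor-like cells of 60 hpf. The neuron-like cells of 28 hpf had 10.9% predicted doublets, and the G2 and M phase list was at 4.39 in them against 1.07 in precursor-like cells. A cluster of 695 GABAergic neuron-like cells, with 27.3% predicted doublets, held 803 of their 1094 UMIs of ccnd1 and 306 of their 373 UMIs of cdkn1a. The part of doublets in these ratios was not tested. With the motor neuron-like cells alone, a choice made after seeing the data, 0 were higher and 4 lower at 60 hpf, against 32.2% higher and 11.4% lower of 13306 genes, and 0 were higher and 6 lower at 28 hpf, against 34.5% and 13.0% of 12208 genes.

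**Figure D1:**
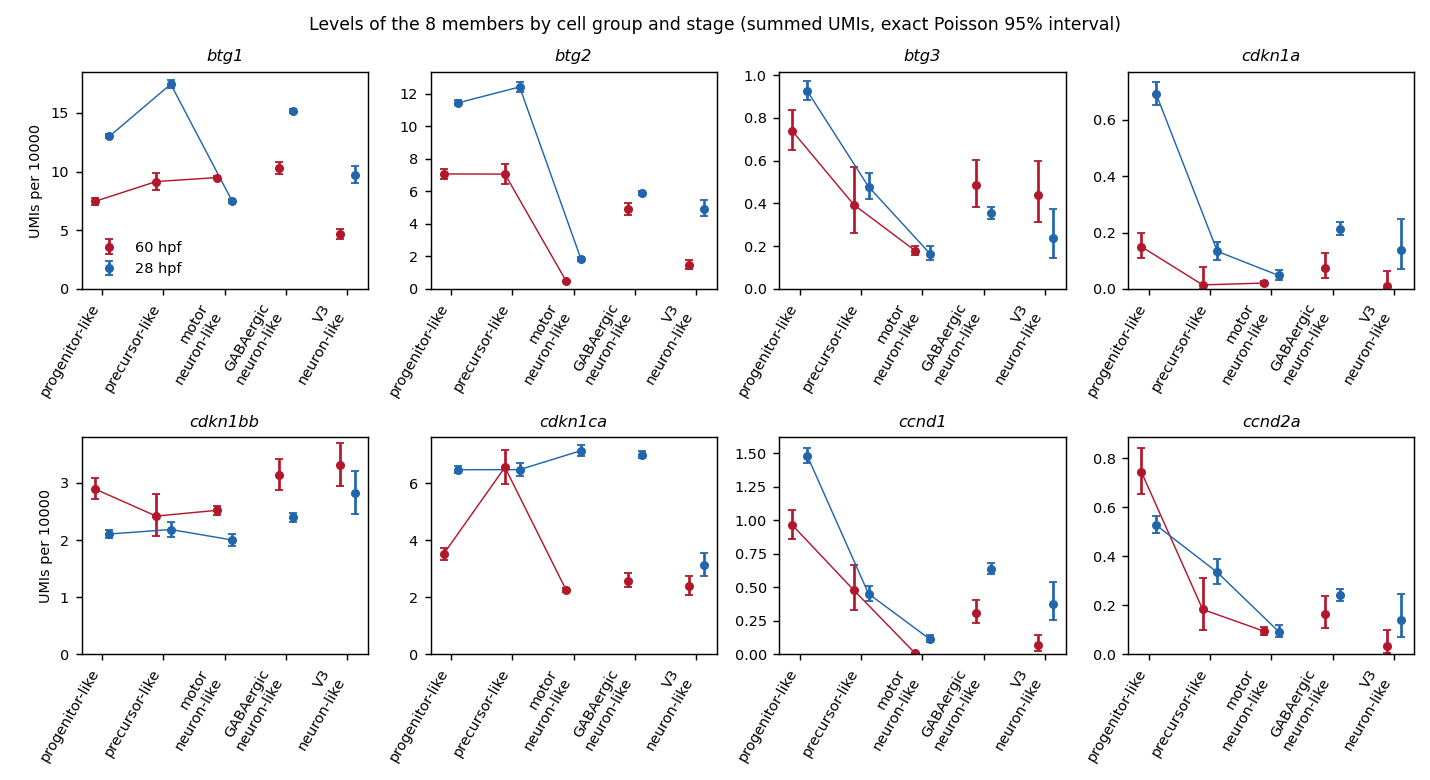
Level of each member in UMIs per 10000 (vertical axis, with the exact Poisson 95% interval) in progenitor-like, precursor-like, motor neuron-like, GABAergic neuron-like and V3 neuron-like cells at 60 hpf (red) and 28 hpf (blue), with lines along the motor neuron path. btg2 was lower in motor neuron-like than in precursor-like cells at both stages. In the groups joined by lines cdkn1bb lay between 2.0 and 2.90. In motor neuron-like cells cdkn1ca was at 2.25 at 60 hpf and 7.15 at 28 hpf.

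In the grouping used here btg2, whose mouse ortholog Tis21 marks progenitors in neuron-producing divisions, was as high in precursor-like as in progenitor-like cells and far lower in motor neuron-like cells. At 60 hpf its level was 7.07 (6.79 to 7.36) in progenitor-like, 7.06 (6.46 to 7.71) in precursor-like and 0.467 (0.433 to 0.502) in motor neuron-like cells. At 28 hpf the same series was 11.4 (11.3 to 11.6), 12.4 (12.1 to 12.7) and 1.83 (1.73 to 1.93). The level was thus kept in the precursor-like cells, whose G2 and M phase list was far below that of progenitor-like cells. The log2 ratio of motor neuron-like over precursor-like cells was -3.92 at 60 hpf (-4.09 to -3.75) and -2.76 at 28 hpf (-2.85 to -2.68). Of all genes, 1.19% at 60 hpf and 1.23% at 28 hpf had a lower ratio. The share of cells with btg2 was 68.1% in progenitor-like, 63.9% in precursor-like and 8.60% in motor neuron-like cells at 60 hpf, where erythroid-like cells had 7.92%, close to the motor neuron share. At 28 hpf these shares were 84.6%, 87.1% and 21.5%, with 15.4% in erythroid-like cells.

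The step at which btg2 was lower depended at 60 hpf on which cells were called precursors. The clustering used here gave 134 precursor-like cells, and 465 cells of a separate cluster that expressed precursor and motor neuron markers together stayed unnamed. This unnamed cluster had btg2 at 0.947, and its log2 ratio over the precursor-like cluster was -2.90 (-3.09 to -2.70). Some other clusterings counted 392 to 676 cells as precursor-like at 60 hpf, and the precursor-like over progenitor-like ratio of btg2 was then -1.56 to -2.54 in place of -0.00. It was at least 2-fold lower in 4 of 10 alternatives. With at most 4000 genes and 20% mitochondrial UMIs, 153 cells were precursor-like and the ratio was 0.09. At 28 hpf the same ratio was 0.12, and -0.50 with both libraries clustered together. Over all neuron-like cells the ratio to precursor-like cells at 60 hpf was -2.93. In the clusterings with 392 to 676 precursor-like cells it was -0.26 to -1.39, below 2-fold with both libraries clustered together (-0.67) and with all variable genes kept (-0.26). At 28 hpf it was -1.42, and -0.83 with both libraries together. At 28 hpf the corresponding unnamed cluster of 843 cells had btg2 at 3.45, with a log2 ratio of -1.85 (-1.92 to -1.78) over the precursor-like cluster. At both stages btg2 was thus lower in the cluster that also held motor neuron markers. Both cluster pairs were picked after their values were seen. The study reported btg2 as reduced in its primitive motor neurons, which expressed isl1 and neurod4. How those cells map onto the groups used here was not tested.

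btg1, a paralog of btg2 whose product binds the same deadenylase complex, did not share this difference at 60 hpf. Its level at 60 hpf was 7.45 (7.16 to 7.75) in progenitor-like, 9.14 (8.45 to 9.87) in precursor-like and 9.49 (9.33 to 9.64) in motor neuron-like cells. At 28 hpf it was 13.0 (12.8 to 13.2), 17.4 (17.1 to 17.8) and 7.49 (7.29 to 7.70). The precursor state held the highest level of the path at 28 hpf, while at 60 hpf precursors and motor neurons were level, with a log2 ratio of 0.05 (-0.06 to 0.17) that included 0. At 28 hpf the ratio of motor neuron-like over precursor-like cells was -1.22 (-1.27 to -1.17). The ratio of precursor-like over progenitor-like cells was 0.30 at 60 hpf (0.17 to 0.42) and 0.42 at 28 hpf (0.39 to 0.46), both below 2-fold. Among the neurons of 28 hpf, GABAergic neuron-like cells had 15 (14.9 to 15.3), above the 7.49 of motor neuron-like cells. Of those 1339 cells, 695 were of 1 cluster with a median of 13646 UMIs and 27.3% predicted doublets. The other 644 cells, with 0.932% predicted doublets, had btg1 at 14.4 (14.0 to 14.8). The part of doublets in the difference from motor neuron-like cells was not tested.

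btg3, the third BTG gene, was lower in each later group of the path. Its level was 0.738 (0.648 to 0.836) in progenitor-like, 0.394 (0.262 to 0.569) in precursor-like and 0.179 (0.158 to 0.201) in motor neuron-like cells at 60 hpf. At 28 hpf it was 0.926 (0.881 to 0.973), 0.478 (0.421 to 0.540) and 0.165 (0.137 to 0.199). The precursor-like over progenitor-like log2 ratio was -0.91 at 60 hpf (-1.52 to -0.34) and -0.95 at 28 hpf (-1.15 to -0.76), just inside 2-fold. The motor neuron-like over precursor-like ratio was -1.14 (-1.70 to -0.52) and -1.53 (-1.86 to -1.21). Erythroid-like cells had 0.0945 and 0.135, and the share of motor neuron-like cells with btg3 at 28 hpf, 2.71%, did not exceed the 3.05% of erythroid-like cells.

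Of the Cip/Kip inhibitors, cdkn1a, which encodes p21 and is the classical target of p53, was highest in progenitors and scarce in precursors and neurons. At 60 hpf it had 50 UMIs in the progenitor-like cells, a level of 0.150 (0.111 to 0.198), 1 UMI in the precursor-like cells, 0.0141 (0.000356 to 0.0784), and 31 UMIs in the motor neuron-like cells, 0.0207 (0.0140 to 0.0293). At 28 hpf the levels were 0.693 (0.654 to 0.733), 0.133 (0.104 to 0.168) and 0.0475 (0.0327 to 0.0667). The precursor-like over progenitor-like log2 ratio was -3.41 at 60 hpf (-8.75 to -0.87) and -2.38 at 28 hpf (-2.75 to -2.03). The wide interval at 60 hpf comes with the single UMI, and the erythroid-like level of 60 hpf, 0.0373, lay above those of precursor-like and motor neuron-like cells. With at least 500 genes per cell the ratio at 28 hpf was -0.66, and it passed 2-fold under the other 9 alternatives. The share of progenitor-like cells with cdkn1a was 3.08% at 60 hpf and 9.67% at 28 hpf, against 1.13% and 0.693% of erythroid-like cells. Among precursor-like cells it was 0 of 133 at 60 hpf, with an exact upper bound of 2.74%, and 1.95% at 28 hpf.

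cdkn1bb, one of the zebrafish genes for p27, was nearly flat over the named groups of the path at both stages. At 60 hpf its level was 2.90 (2.72 to 3.08) in progenitor-like, 2.42 (2.07 to 2.81) in precursor-like and 2.52 (2.44 to 2.60) in motor neuron-like cells. At 28 hpf it was 2.11 (2.04 to 2.18), 2.18 (2.06 to 2.31) and 2.0 (1.90 to 2.11). Neighbouring groups differed by at most 1.20-fold: the log2 ratio of precursor-like over progenitor-like cells was -0.26 at 60 hpf (-0.50 to -0.02) and 0.05 at 28 hpf (-0.04 to 0.15), and that of motor neuron-like over precursor-like cells 0.06 (-0.16 to 0.29) and -0.13 (-0.24 to -0.01). The shares were also level, at 42.7%, 39.8% and 38.8% of progenitor-like, precursor-like and motor neuron-like cells at 60 hpf, well above the 10.8% of erythroid-like cells. The largest of these 4 ratios was smaller than the largest of any other member. In the unnamed cluster with precursor and motor neuron markers cdkn1bb was above the precursor-like cluster at both stages. It was at 3.06 there at 60 hpf, a log2 ratio of 0.34 (0.11 to 0.58), and at 2.89 at 28 hpf, a ratio of 0.40 (0.29 to 0.51).

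cdkn1ca, one of the zebrafish genes for p57, had different profiles at 60 hpf and 28 hpf. At 60 hpf its level was 3.52 (3.32 to 3.73) in progenitor-like, 6.57 (5.99 to 7.19) in precursor-like and 2.25 (2.17 to 2.32) in motor neuron-like cells. At 28 hpf it was 6.48 (6.36 to 6.60), 6.49 (6.27 to 6.71) and 7.15 (6.95 to 7.35). The precursor-like level was thus the highest of the path at 60 hpf, while at 28 hpf it was level with that of progenitor-like cells. The precursor-like over progenitor-like log2 ratio was 0.90 at 60 hpf (0.74 to 1.06) and 0.00 at 28 hpf (-0.05 to 0.06), and the motor neuron-like over precursor-like ratio was -1.55 (-1.69 to -1.40) and 0.14 (0.08 to 0.20). This contrast depended on which cells were taken: among cells below the median immediate early gene level of their library (described further on), the precursor-like over progenitor-like ratio reached 0.94 (0.62 to 1.25) at 60 hpf, and the 28 hpf ratio was 0.67 (0.56 to 0.78). With the larger precursor-like groups of other clusterings at 60 hpf that ratio was -0.06 to 0.23, and the ratio of all neuron-like over precursor-like cells, here -1.53, was -0.78 to -0.96, below 2-fold. The shares were 44.2%, 68.4% and 34.3% at 60 hpf, in the order of the levels, and flat at 28 hpf with 58.6%, 58.5% and 58.7%, against 1.70% and 1.94% of erythroid-like cells. In the unnamed cluster with precursor and motor neuron markers cdkn1ca was at 3.74 at 60 hpf, below the precursor-like cluster by a log2 ratio of -0.81 (-0.96 to -0.66), and at 9.58 at 28 hpf, above it by 0.56 (0.50 to 0.62).

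Along this path both D cyclins were highest in the progenitors. ccnd1 was at 0.962 (0.860 to 1.07) in progenitor-like, 0.478 (0.331 to 0.668) in precursor-like and 0.00733 (0.00366 to 0.0131) in motor neuron-like cells at 60 hpf. At 28 hpf it was at 1.48 (1.43 to 1.54), 0.452 (0.397 to 0.513) and 0.112 (0.0887 to 0.14). Each step was 2-fold or more at both stages, the first one at 60 hpf only just. The precursor-like over progenitor-like log2 ratio was -1.01 at 60 hpf (-1.56 to -0.50) and -1.71 at 28 hpf (-1.91 to -1.52). The motor neuron-like over precursor-like ratio was -6.03 (-7.16 to -5.01), from 11 and 34 UMIs, and -2.01 (-2.40 to -1.64). Erythroid-like cells are no neutral background for this gene: they held it at 1.15 (1.11 to 1.19) at 28 hpf, with a share of 20.8%, against 0.261 at 60 hpf. For ccnd1 the ratio of all neuron-like over precursor-like cells at 60 hpf, -3.69, changed sign under other clusterings, to 0.27 with both libraries clustered together and 0.77 with all variable genes kept. The precursor-like over progenitor-like ratio at 60 hpf lay between -4.56 and -0.27 under the alternatives, past 2-fold in 7 of 10, and at 28 hpf it was -0.28 with at least 500 genes per cell.

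ccnd2a, the other D cyclin, was at 0.744 (0.654 to 0.842) in progenitor-like, 0.183 (0.0974 to 0.313) in precursor-like and 0.0940 (0.0791 to 0.111) in motor neuron-like cells at 60 hpf. At 28 hpf the levels were 0.527 (0.493 to 0.562), 0.334 (0.286 to 0.386) and 0.0920 (0.0709 to 0.118). Its step into the precursor state was thus steeper at 60 hpf, with a log2 ratio of -2.02 (-2.95 to -1.22) from 13 and 248 UMIs against -0.66 (-0.90 to -0.43) at 28 hpf. The difference between the stages was not tested. Among top2a-negative cells alone, an alternative added after seeing the data, the ratio was -2.12 at 60 hpf and -1.03 at 28 hpf, so ccnd2a then passed 2-fold at both stages. cdkn1a and ccnd1 also stayed at least 2-fold lower in top2a-negative precursor-like than in top2a-negative progenitor-like cells, with -3.25 and -1.49 at 60 hpf and -1.90 and -1.65 at 28 hpf. These 3 genes were the ones called in that comparison, all lower, where 7.22% of 8114 genes were higher and 22.5% lower at 60 hpf, and 7.41% of 11932 higher and 19.0% lower at 28 hpf.

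**Figure D2:**
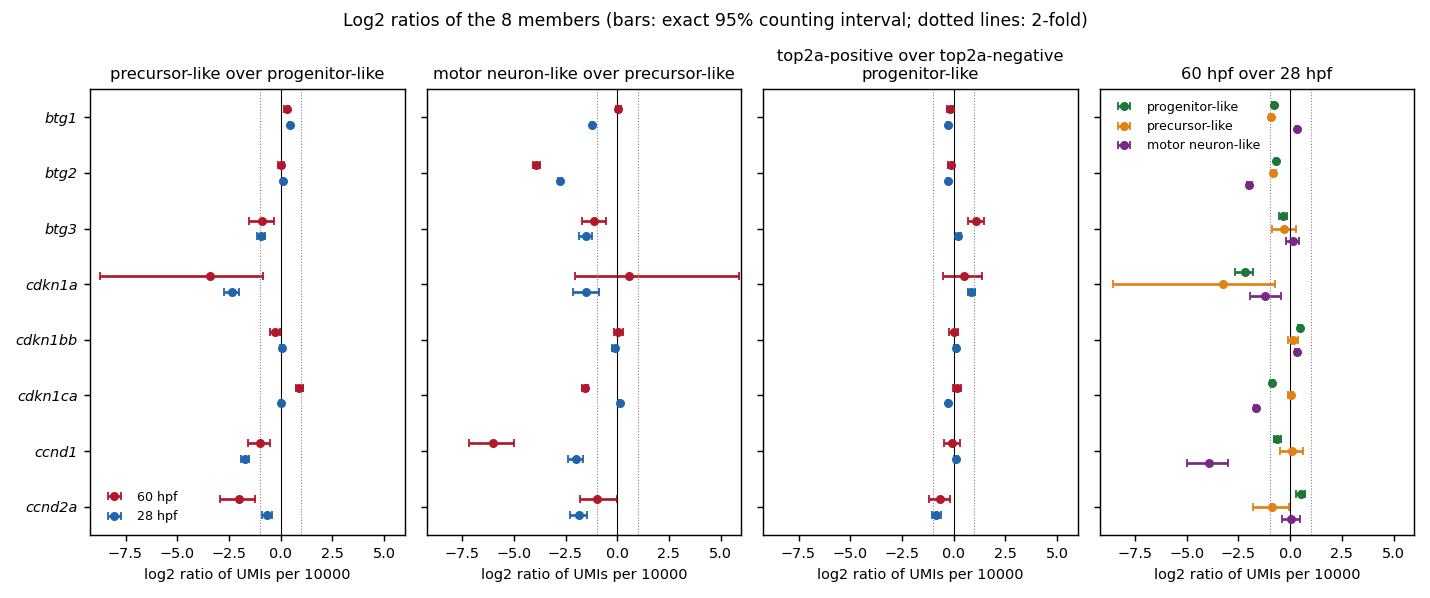
Log2 ratio of UMIs per 10000 for each member (horizontal axis, bars for the exact 95% counting interval, dotted lines at 2-fold) in precursor-like over progenitor-like, motor neuron-like over precursor-like and top2a-positive over top2a-negative progenitor-like cells at 60 hpf (red) and 28 hpf (blue), and in 60 hpf over 28 hpf for 3 groups. In the panel of top2a status all points but btg3 at 60 hpf, at 1.08, lie within 2-fold.

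Most of these genes differed by less than 2-fold between progenitor-like cells with and without top2a. Progenitor-like cells with at least 1 UMI of top2a numbered 66 at 60 hpf and 818 at 28 hpf, against 325 and 1281 without. At 60 hpf 1 of the 8 genes was called higher in top2a-positive cells (btg3) and 0 lower, where 4.02% of 8182 genes were higher and 10% lower, with a median log2 ratio of -0.05 over the 8 and -0.12 over all genes. At 28 hpf 0 were higher and 0 lower, against 4.42% and 2.01% of 12210 genes, with medians of -0.08 and -0.02. The other 16 features of the G2 and M phase list, without top2a itself, were at a summed level of 35.5 in top2a-positive against 3.13 in top2a-negative cells at 60 hpf and at 31.2 against 7.06 at 28 hpf. A list of 15 S phase features, pcna among them, was at 15.7 against 6.53 at 60 hpf. At 28 hpf it was at 16.8 against 13.6, with 0 of 15 called higher and 1 lower. The top2a-negative cells of 28 hpf therefore cannot be read as non-dividing. The top2a-positive cells were also deeper, with a median of 10723.5 against 5862 UMIs at 60 hpf and 9080.5 against 6011 at 28 hpf, and the part of depth in these levels was not tested.

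The inhibitor cdkn1a had a higher level in the top2a-positive progenitors of 28 hpf, short of the 2-fold call. The level was 0.892 (0.830 to 0.958) in top2a-positive and 0.499 (0.454 to 0.548) in top2a-negative cells, a log2 ratio of 0.84 (0.67 to 1.01), and 94.3% of genes had a lower ratio. At equal depth, with all cells thinned, 15.4% (11.8 to 19.5) of cells with top2a and 8.49% (7.22 to 9.90) of cells without it had cdkn1a. Ordered by detection of replication and division genes, the level was 0.354 in progenitor-like cells with neither top2a nor pcna, the replication clamp, 0.592 in those with pcna alone, 0.892 in those with top2a and 0.935 in those with at least 3 UMIs of top2a. When mki67 took the place of top2a the ratio was 1.47, and over all 11 alternatives it lay between 0.45 and 1.47, past 2-fold in 4. In the 50 progenitor-like cells of 28 hpf that formed a mitotic cluster, described further on, cdkn1a was low instead. At 60 hpf the ratio by top2a was 0.47 (-0.50 to 1.38), from 15 and 35 UMIs, which leaves its direction undetermined at this depth. The p53 target list, of 11 features, was at 12.3 in top2a-positive and 11.3 in top2a-negative cells at 28 hpf, with 0 of 11 called apart.

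btg3 was the member called higher in the top2a-positive progenitors of 60 hpf. It was at 1.23 (1.0 to 1.5) in top2a-positive and 0.585 (0.494 to 0.686) in top2a-negative cells, a log2 ratio of 1.08 (0.69 to 1.46). Under the alternatives this ratio was 0.73 to 1.39, below 2-fold at the low end. At 28 hpf its ratio was 0.19 (0.04 to 0.33). At equal depth fewer cells of 60 hpf kept a UMI of top2a than were used for the levels. There 12% (2.55 to 31.2) of 25 cells with top2a and 12.9% (9.64 to 16.8) of cells without it had btg3. The interval from 25 cells is too wide for the shares to show or to exclude the difference seen in levels.

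ccnd2a was the D cyclin with a lower level in the top2a-positive cells, short of 2-fold at both stages. Its level was 0.509 (0.363 to 0.693) in top2a-positive and 0.816 (0.709 to 0.935) in top2a-negative progenitor-like cells at 60 hpf, and 0.376 (0.336 to 0.420) and 0.673 (0.619 to 0.729) at 28 hpf, for log2 ratios of -0.68 (-1.21 to -0.19) and -0.84 (-1.04 to -0.64). At 28 hpf only 3.37% of genes had a lower ratio. ccnd1 did not follow it, with -0.09 at 60 hpf (-0.49 to 0.29) and 0.11 at 28 hpf (0.00 to 0.23). By status, ccnd1 at 60 hpf was at 0.630 (0.519 to 0.757) with neither top2a nor pcna, 1.80 (1.51 to 2.13) with pcna alone and 0.916 (0.716 to 1.15) with top2a, a peak among the cells that held the replication gene without the division gene. At 28 hpf the same series was 1.29, 1.51 and 1.54, without a peak.

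The remaining members differed little by status. btg1 and btg2 at 28 hpf were lower in top2a-positive cells by log2 ratios of -0.27 (-0.31 to -0.23) and -0.28 (-0.32 to -0.24), and cdkn1ca by -0.28 (-0.34 to -0.23). At 60 hpf the same ratios were -0.19, -0.13 and 0.18. cdkn1bb gave -0.01 at 60 hpf (-0.23 to 0.21) and 0.10 at 28 hpf (0.01 to 0.20).

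**Figure D3:**
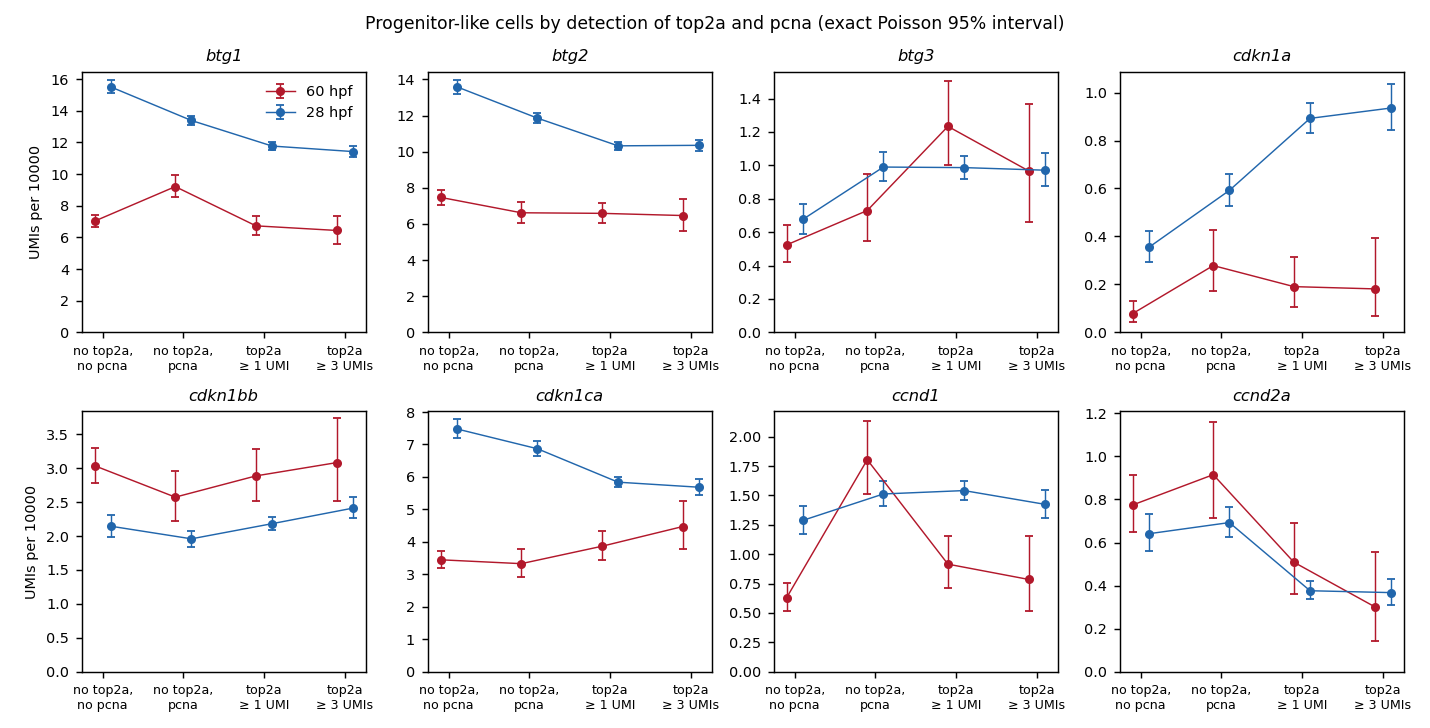
Level of each member in UMIs per 10000 (vertical axis, exact Poisson 95% interval) in progenitor-like cells at 60 hpf (red) and 28 hpf (blue), ordered from cells with neither top2a nor pcna to cells with at least 3 UMIs of top2a. At 28 hpf cdkn1a climbs across the 4 classes to 0.935, and at 60 hpf ccnd1 peaks at 1.80 in cells with pcna and no top2a.

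The progenitor-like cells of 28 hpf fell into 3 clusters, made without these genes and compared here after their values were seen. A small cluster of 50 cells was led by mitotic genes, with the G2 and M phase list at 74.5, against 6.35 in the largest cluster of 1177 cells. In the mitotic cluster btg1 was at 1.77 (74 UMIs), against 14.3 in the largest cluster, a log2 ratio of -3.02 (-3.37 to -2.69). btg2 was at 5.53 against 12.9, a ratio of -1.23 (-1.42 to -1.04), and cdkn1ca and cdkn1bb gave -1.17 (-1.42 to -0.93) and -1.12 (-1.63 to -0.65). cdkn1a had 3 UMIs there against 377, a level of 0.0718 against 0.450 and a ratio of -2.65 (-4.93 to -1.09), opposite to its direction by top2a status. btg1, btg2 and the 3 inhibitors were therefore low in the cluster richest in mitotic RNA. The intervals of btg3, 0.42 (-0.06 to 0.87), and ccnd2a, -0.42 (-1.14 to 0.22), included 0. ccnd1 went the other way, at 3.40 against 1.43, a ratio of 1.25 (0.99 to 1.5). The immediate early genes were also unlike in these clusters, at a summed level of 7.18 against 97.8, and their part in these differences was not tested. The other cycling cluster, 872 cells with top2a in 33.6%, had cdkn1a at 0.964 against 0.450 in the largest cluster, a ratio of 1.1 (0.92 to 1.28), while ccnd2a gave -0.62 (-0.82 to -0.42) and btg3 0.55 (0.40 to 0.70).

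Between the stages, no member was called higher at 60 hpf than at 28 hpf in the same group, and the number called lower differed between groups. In progenitor-like cells 0 were called higher and 1 lower (cdkn1a), against 14.6% higher and 13.9% lower of 14088 genes, with a median log2 ratio of -0.66 over the 8 and 0.19 over all genes. In neuron-like cells 0 were higher and 5 lower (btg2, cdkn1a, cdkn1ca, ccnd1 and ccnd2a), against 19.6% and 21.3% of 16792 genes, with medians of -1.31 and 0.25. In motor neuron-like cells alone 0 were higher and 4 lower (btg2, cdkn1a, cdkn1ca and ccnd1), against 17.4% and 14.2% of 13942 genes, with medians of -0.58 and 0.26, and the ratios of the other 4 lay between 0.03 and 0.34. In precursor-like cells 0 were higher and 1 lower (cdkn1a), against 14.1% and 16.0% of 9303 genes. The progenitor-like groups also differed in markers of other types, with the radial glia list at 46.4 at 60 hpf and 9.10 at 28 hpf and the motor neuron list at 2.70 and 0.529, and the part of these cells or states in the ratios was not tested. Stage and library cannot be told apart in these comparisons.

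cdkn1a was the member called lower at 60 hpf in progenitor-like, precursor-like and motor neuron-like cells. Of these groups, only the progenitor-like cells lay well above the erythroid-like levels of 0.0373 at 60 hpf and 0.0313 at 28 hpf at both stages. Motor neuron-like cells had cdkn1a at 0.0207 and 0.0475, near those levels. In progenitor-like cells cdkn1a was at 0.150 at 60 hpf and 0.693 at 28 hpf, a log2 ratio of -2.21 (-2.65 to -1.80), and in motor neuron-like cells the ratio was -1.20 (-1.96 to -0.45). In precursor-like cells 1 UMI of cdkn1a was counted at 60 hpf and 71 at 28 hpf, a log2 ratio of -3.24 (-8.57 to -0.72). The ratio in progenitor-like cells was -1.86 among top2a-negative cells and -2.23 among top2a-positive cells, and it passed 2-fold under all 9 alternatives tried. Of the p53 target list of 11, 0 were called higher and 4 lower in progenitor-like cells, where 14.6% and 13.9% of all genes were, and its summed level was 7.44 at 60 hpf and 11.8 at 28 hpf. In motor neuron-like cells 2 were higher and 4 lower of 10 tested, against 17.4% and 14.2% of all genes, and the summed level was the higher one at 60 hpf, 6.13 against 4.39 at 28 hpf.

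cdkn1ca was lower in motor neuron-like cells at 60 hpf, at 2.25 against 7.15 at 28 hpf, a log2 ratio of -1.67 (-1.73 to -1.61). In precursor-like cells the stages were level, with 0.02 (-0.12 to 0.16), and in progenitor-like cells the ratio was -0.88 (-0.97 to -0.79). Among the 45 and 533 progenitor-like cells below the median immediate early level of their library the ratio was 0.02. btg2 was lower at 60 hpf in motor neuron-like cells, by -1.97 (-2.11 to -1.84), and in progenitor-like cells, by -0.70 (-0.76 to -0.63). GABAergic neuron-like cells had btg2 at 4.90 at 60 hpf (4.57 to 5.25) and 5.87 at 28 hpf (5.75 to 6.0), while over all neuron-like cells the ratio was -2.33. At 28 hpf the GABAergic cluster with 27.3% predicted doublets had btg2 at 6.49 (6.34 to 6.64). The other, with 0.932%, had it at 4.21 (4.02 to 4.41), below the 60 hpf level. Of the GABAergic neuron-like cells of 60 hpf 13.7% were predicted doublets, and the part of doublets in these levels was not tested. Motor neuron-like cells were 2023 of the 2546 neuron-like cells at 60 hpf and 769 of 2189 at 28 hpf.

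ccnd1 in motor neuron-like cells was at 0.00733 at 60 hpf and 0.112 at 28 hpf, a log2 ratio of -3.94 (-5.00 to -3.02). The G2 and M phase list was at 0.211 and 1.86 in the same cells, and of the motor neuron-like cells 1.09% and 4.68% were predicted doublets. The part of doublets in the earlier ccnd1 level was not tested. ccnd2a was called lower over all neuron-like cells, at -1.02 (-1.28 to -0.76), but in motor neuron-like cells the ratio was 0.03 (-0.41 to 0.48). cdkn1bb was slightly higher at 60 hpf, below 2-fold, in progenitor-like cells, with 0.46 (0.36 to 0.56), and in motor neuron-like cells, with 0.33 (0.24 to 0.42), while the interval in precursor-like cells, 0.15 (-0.09 to 0.38), included 0, and btg1 was higher in motor neuron-like cells alone of the 3, at 0.34 (0.29 to 0.39).

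Immediate early genes, such as fosab, junba and egr1, are switched on within minutes by signals and also by the dissociation of tissue, and several of the 8 genes moved with them from cell to cell. Each group was ordered by the summed level of 14 such genes and divided into 3 parts of equal size, called the lowest, middle and highest tertile. In progenitor-like cells of 28 hpf, cdkn1ca was at 2.96 (2.82 to 3.10), 5.92 (5.73 to 6.12) and 10.9 (10.6 to 11.2) in the lowest, middle and highest tertile. cdkn1a was at 0.320 (0.276 to 0.369), 0.744 (0.677 to 0.817) and 1.04 (0.954 to 1.13). Both genes climbed at each step, with log2 ratios of the highest over the lowest tertile of 1.88 (1.81 to 1.96) and 1.70 (1.46 to 1.94). For btg2 and btg3 the same ratios were 0.32 (0.27 to 0.37) and -0.18 (-0.36 to 0.01). The median depth of the tertiles was 7291.5, 7382 and 6653 UMIs.

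This relation differed in size between groups. In precursor-like cells of 28 hpf cdkn1ca was at 10.3 in the highest and 3.66 in the lowest tertile, a ratio of 1.49 (1.36 to 1.62). In motor neuron-like cells of 28 hpf it was at 7.14 and 7.30, a ratio of -0.03 (-0.13 to 0.07), so the gene was high there at any immediate early level. At 60 hpf the ratio was 0.67 (0.46 to 0.87) in progenitor-like, 0.70 (0.36 to 1.03) in precursor-like and 0.14 (0.01 to 0.26) in motor neuron-like cells. ccnd1 in precursor-like cells of 28 hpf was at 0.797 in the highest and 0.149 in the lowest tertile, a ratio of 2.42 (1.81 to 3.08), and at 60 hpf it had 25 UMIs in the highest and 1 in the lowest. btg2 followed the immediate early level in motor neuron-like cells, with 1.34 at 60 hpf (1.06 to 1.61) and 1.79 at 28 hpf (1.53 to 2.07). It was not alone: at 28 hpf ccnd1 (3.51), cdkn1a (2.39), ccnd2a (1.59) and btg3 (1.23) also rose there, from 3, 3, 7 and 18 UMIs in the lowest tertile. btg1 gave 0.53 and cdkn1bb 0.03. That tertile was also shallower, with a median of 6653 against 8527 UMIs in the highest. At 60 hpf ccnd2a gave 1.06 (0.47 to 1.67), cdkn1a 1.25 (-0.18 to 2.82) and btg3 -0.19 (-0.67 to 0.27).

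The immediate early list itself differed between the groups compared above. Its summed level was 24.5 in precursor-like and 76.1 in progenitor-like cells at 60 hpf and 43.8 and 94.1 at 28 hpf, and 36.7 and 32.2 in motor neuron-like cells at 60 hpf and 28 hpf. For motor neuron-like cells the sum and the single genes differed. Between the stages their median log2 ratio was -0.40, with 0 higher and 4 lower of 14, against 17.4% and 14.2% of all genes. Over precursor-like cells at 60 hpf the median was -0.73, with 4 higher and 5 lower, against 32.2% and 11.4%. Among cells below the median level of their library, the precursor-like over progenitor-like ratio of cdkn1a at 28 hpf was -1.63 in place of -2.38, and that of cdkn1ca 0.67 in place of 0.00. Whether handling of the cells set these levels was not tested.

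**Figure D4:**
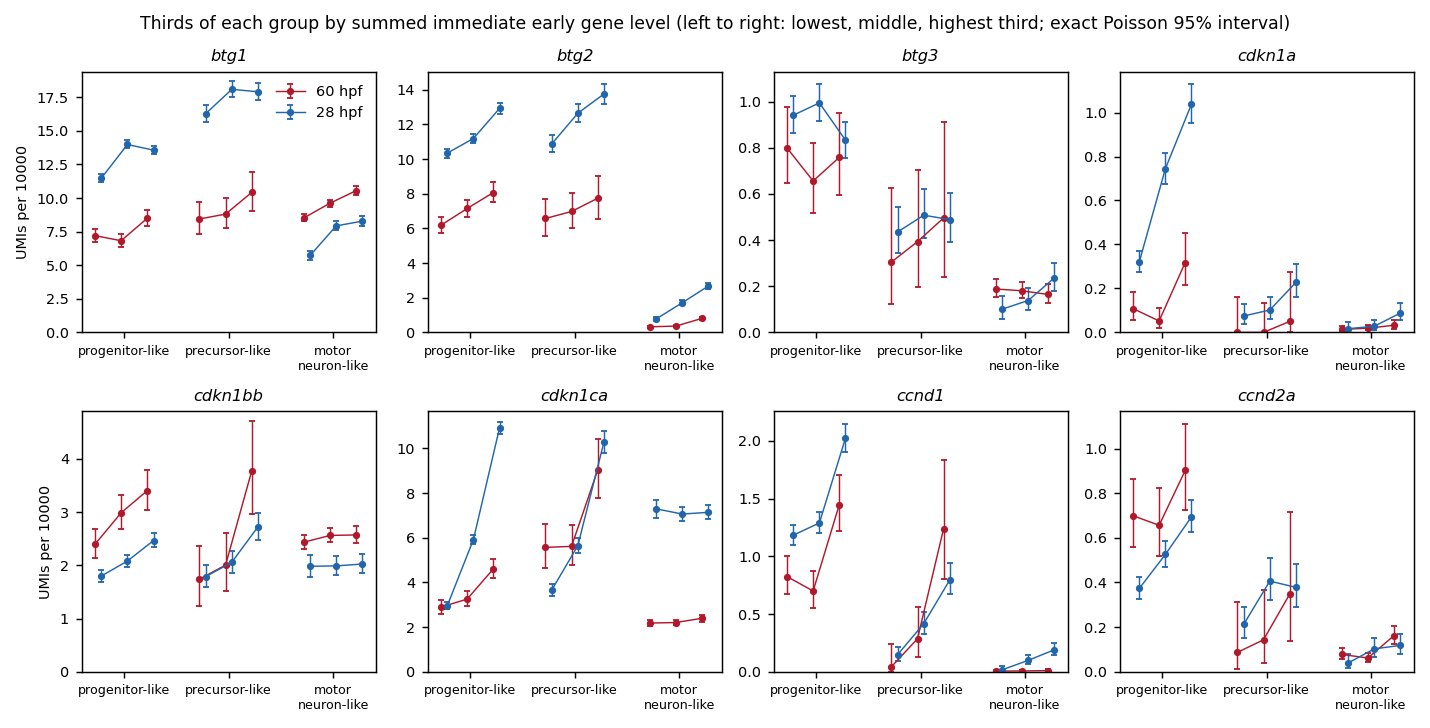
Level of each member in UMIs per 10000 (vertical axis, exact Poisson 95% interval) in progenitor-like, precursor-like and motor neuron-like cells, each divided by summed immediate early gene level (left to right: lowest, middle, highest part), at 60 hpf (red) and 28 hpf (blue). In progenitor-like cells of 28 hpf cdkn1ca climbs to 10.9 while in motor neuron-like cells of 28 hpf it stays between 7.06 and 7.30.

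Over all 22 combinations of stage and named group, the highest group differed between most of the genes. At 28 hpf muscle-like cells led for both btg3 (1.22) and ccnd1 (1.67), where the ccnd1 interval overlapped that of epithelium-like cells (1.59), and epithelium-like cells led for btg1 (20.6). btg2 was highest in precursor-like cells of 28 hpf. cdkn1bb was highest in radial glia-like cells of 60 hpf, at 4.73 (4.37 to 5.12), above the next group, V3 neuron-like cells of 60 hpf, at 3.31. The same 149 radial glia-like cells had cdkn1ca at only 1.32 (1.13 to 1.53) and btg2 at 6.50 (6.07 to 6.95), close to the 7.07 of progenitor-like cells. Among the named groups ccnd2a was highest in OPC/OL-like cells, which carry markers of oligodendrocyte precursors and oligodendrocytes, at 1.42 (1.29 to 1.57), with floor plate-like cells at 1.1 and radial glia-like cells at 0.811 behind them, the interval of floor plate-like cells (0.822 to 1.44) overlapping theirs. In these 358 OPC/OL-like cells top2a was found in 0.847%, btg1 was at 2.54 (2.36 to 2.72) and btg2 at 1.51 (1.38 to 1.66). An unnamed cluster of 74 cells at 60 hpf had ccnd2a at 1.65 (1.36 to 1.98), with top2a in 13.5%, so high ccnd2a levels occurred in groups with few and with many top2a-positive cells. Among the named groups cdkn1ca had its highest levels in motor neuron-like (7.15), GABAergic neuron-like (7.01) and epithelium-like (6.91) cells of 28 hpf, whose intervals overlapped from one to the next. The unnamed cluster of 843 cells at 28 hpf, with precursor and motor neuron markers, had cdkn1ca above all of these, at 9.58 (9.32 to 9.84). cdkn1a was highest in progenitor-like (0.693) and muscle-like (0.660) cells of 28 hpf and in epithelium-like cells of 60 hpf (0.629), again with overlapping intervals.

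The members were compared in pattern over these 22 groups by the correlation of log2 level, as a description over groups that share 2 libraries. Among the 8, btg1 and btg2 (r = 0.69), btg2 and btg3 (0.66), cdkn1bb and cdkn1ca (0.65), btg3 and ccnd2a (0.64) and btg1 and cdkn1ca (0.63) were the most alike. These values also rest on groups outside the neural tissue that were low in most members. Erythroid-like cells had cdkn1bb at 0.628 and 0.405 and cdkn1ca at 0.0638 and 0.156 at 60 hpf and 28 hpf. The group highest in cdkn1bb, radial glia-like cells of 60 hpf, had cdkn1ca at 1.32. The group highest in cdkn1ca, motor neuron-like cells of 28 hpf, had cdkn1bb at 2.0. Correlations over the neural groups alone are not given here. ccnd1 and cdkn1bb (-0.00) and cdkn1a and cdkn1bb (-0.05) had no common pattern. Of the 14044 genes searched, the most like btg2 was id1 (0.92), that most like cdkn1ca was ppp1r10 (0.94), that most like cdkn1bb smurf2 (0.93), that most like btg1 pnrc2 (0.91), that most like btg3 tnpo2 (0.90), that most like cdkn1a fam83d (0.92), that most like ccnd1 plagl2 (0.89) and that most like ccnd2a cd82a (0.92).

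**Figure D5:**
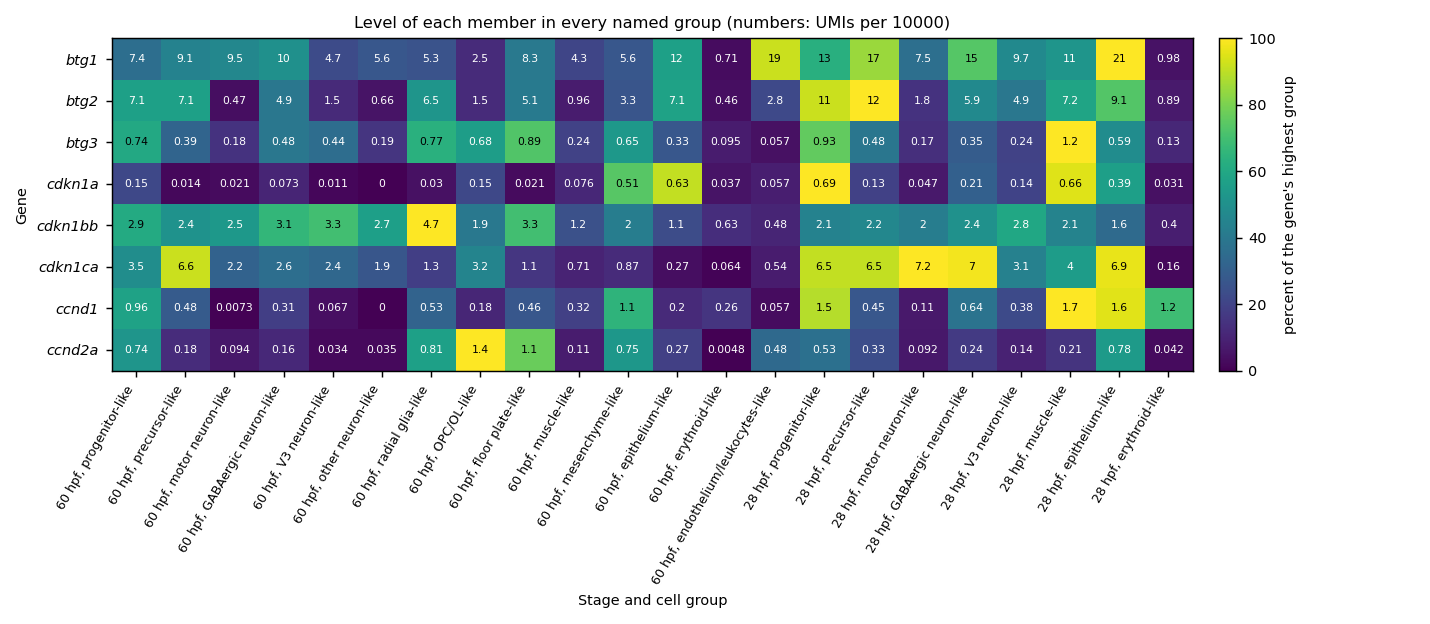
Level of each member (rows) in every named group of 60 hpf and then 28 hpf (columns), with UMIs per 10000 printed in each cell and the color giving the percent of the highest group of that gene. cdkn1bb peaks in radial glia-like cells of 60 hpf (4.73) and ccnd2a in OPC/OL-like cells of 60 hpf (1.42).

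Within single cells of equal depth, cdkn1ca and ccnd1 did not exclude each other in progenitor-like cells of 28 hpf. Other pairs of inhibitor and D cyclin are not given here. At least 1 of the 3 Cip/Kip genes was found in 70.2% of progenitor-like and 78.9% of precursor-like cells at 60 hpf and in 72.8% and 71.5% at 28 hpf. In progenitor-like cells of 28 hpf, ccnd1 was found in 23.3% (20.9 to 25.8) of cells with cdkn1ca and 22.2% (19.4 to 25.1) of cells without it. With the proneural gene neurod4 as a mark of the step toward precursors, cdkn1ca was found in 76.7% (70.5 to 82.2) of progenitor-like cells that had neurod4 and 56.5% (54.2 to 58.7) of those that lacked it at 28 hpf, and in 56.5% (41.1 to 71.1) and 42.6% (37.3 to 48.0) at 60 hpf. The intervals at 60 hpf overlapped, and over the whole groups of 28 hpf the share with cdkn1ca was flat, as given above. Of the other inhibitors, cdkn1a was not found more often with neurod4, with 7.91% and 9.87% at 28 hpf, and cdkn1bb is not given here. ccnd2a at 28 hpf was found in 15.3% (10.8 to 20.9) of progenitor-like cells with neurod4 and in 9.44% (8.15 to 10.9) of those without it.

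The 8 genes were set beside a list of 31 other regulators of G1 and cell cycle exit. In precursor-like over progenitor-like cells 1 was called higher and 5 lower of 18 tested at 60 hpf, against 7.34% and 23.9% of all genes, and 0 and 11 of 26 at 28 hpf, against 8.06% and 21.6%. The lower ones at 28 hpf included skp2, part of the ubiquitin ligase that degrades p27 (2 against 167 UMIs, a log2 ratio of -4.69, -7.75 to -2.81), e2f5, a transcription factor bound by pocket proteins (-3.10), cdkn3, a phosphatase that acts on cyclin-dependent kinases (-2.10), cdkn1cb, the second p57 gene (-1.65), and cdk2 (-1.45). At 60 hpf e2f5 was again lower (-1.89), and cdk6, a partner of the D cyclins, was higher (1.01). In neuron-like over precursor-like cells 4 were higher and 5 lower of 23 tested at 60 hpf, against 32.0% and 10.8% of all genes, and 7 and 3 of 25 at 28 hpf, against 33.5% and 4.77%. There fzr1b, whose product activates the anaphase-promoting complex in G1, was higher at both stages (2.35 at 60 hpf and 3.09 at 28 hpf, with 4 and 8 UMIs in precursor-like cells), as was rbl2, a pocket protein gene of quiescent cells (3.37, from 267 and 1 UMIs with an interval of 0.88 to 8.68, and 1.52), while cdk6 was lower (-3.24 and -1.94). cdkn2d, an inhibitor of Cdk4 and Cdk6, had 155 UMIs in neuron-like and 0 in precursor-like cells at 60 hpf and 111 and 4 at 28 hpf. The neuron-like groups held far more UMIs in all. In levels it was at 0.0843 and 0 at 60 hpf, where the log2 ratio has a lower bound of 0.68, below 2-fold. At 28 hpf it was at 0.0479 and 0.0075, a ratio of 2.67 (1.28 to 4.58). At 28 hpf skp2 (57 against 2 UMIs, 2.71) and e2f5 (152 against 9 UMIs, 1.96) were also higher in neuron-like cells. Both had been lower in precursor-like than in progenitor-like cells of that stage. These neuron-like cells had 10.9% predicted doublets and the G2 and M phase list at 4.39, against 1.07 in precursor-like cells. The part of doublets in the skp2 and e2f5 ratios was not tested. The neuron-like cells of 60 hpf had 0 UMIs of skp2 and 27 of e2f5. In neuron-like over precursor-like cells of 60 hpf cdk2 was lower (-1.48) and cdkn1cb higher (1.20, with an interval of -0.17 to 3.09).

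By top2a status 1 of these regulators was higher and 0 lower of 15 tested at 60 hpf, against 4.02% and 10% of all genes, and 4 and 1 of 24 at 28 hpf, against 4.42% and 2.01%, among the higher cdkn3 (1.80) and cdkn1cb (1.35). cdkn1cb and cdkn1ca, both p57 genes, thus differed by top2a status in progenitor-like cells of 28 hpf, with 0.495 against 0.194 for cdkn1cb and 5.84 against 7.11 for cdkn1ca in top2a-positive and top2a-negative cells. Between the stages, 4 were higher and 6 lower of 26 tested in progenitor-like cells, against 14.6% and 13.9% of all genes, among the lower tob1b, of the TOB branch of the BTG family (1.19 at 60 hpf and 3.11 at 28 hpf, a ratio of -1.38), and 3 were higher and 7 lower of 25 in neuron-like cells, against 19.6% and 21.3%.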

How the data were processed

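UMI counts per gene and cell were deposited by the authors for sorted Tg(olig2:dsRed) trunk cells, 1 library per stage. Per the submitters' processing notes and the methods of the study they were made with Cell Ranger 5.0.0 on the build GRCz11 and left without normalization. Cells with at least 1000 genes were kept. The 60 hpf library held 70432500 UMIs and the 28 hpf library 95108584.

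Each library was clustered on its own in scanpy 1.11.5 (Python 3.11.15, numpy 2.4.6, scipy 1.17.1, pandas 2.3.3, igraph 0.11.9; plots in matplotlib 3.10.9). After scaling to 10000 UMIs and taking logs, the 4000 most variable genes, less the listed cell cycle genes and the 8 members, were standardized and capped at 10, giving 50 components, 15 neighbours and Louvain clusters at resolution 1. A cluster was named for the marker list whose median log2 fold against all other cells was highest (pseudocount 0.1 per 10000), if that median reached 0.5, led the next list by 0.25 and rested on 3 markers found in 5% of its cells. It stayed unnamed where 2 or more of its 10 leading genes marked another class, outnumbering its own. These limits, and leaving 1 cluster led by notochord matrix genes unnamed, were set after the clusters were seen. Doublets were predicted by a Scrublet score at 0.8% per 1000 cells and kept. 

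Levels, shares and ratios are as defined above, and a ratio has the exact interval conditional on the total UMIs of the gene. No test and no p-value is given. The 8 members are named throughout. Of the 31 other regulators, those named came from the up to 6 per comparison with the largest ratio among those called with at least 50 UMIs. For likeness, the leading gene among those with at least 200 UMIs is given. The members and lists were chosen with earlier results of these data known. The calls were tested on simulated counts with known changes, drawn without doublets, free RNA or errors in grouping. That test checks the computation of the calls and cannot show whether the groups are right. The sequences of the genes were not used here.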

Additional observations from a re-analysis of the deposited data

Results flagged for a closer look

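One member took opposite directions at the later and the earlier stage under the same comparison. The log2 ratio of cdkn1ca in neuron-like over precursor-like cells was -1.53 at 60 hpf and 0.09 at 28 hpf, and in motor neuron-like over precursor-like cells it was -1.55 at 60 hpf and 0.14 at 28 hpf. The counting intervals of all 4 values excluded 0. The positive value at 28 hpf over all neuron-like cells was not stable: it kept its sign under 6 of 10 alternatives and lay between -0.35 and 0.57, while the 60 hpf value was negative under all 10. The difference between the stages was not tested, as each stage has 1 library.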

How the results depend on the processing

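No paired analysis was possible because each stage has 1 library. Counts of members called at least 2-fold apart are grouped by setting. Unless a direction is stated, a count takes members higher and lower together. Apart from the motor neuron-like setting, whose shares over all genes are given above, no such share was computed under these settings. The main shares need not hold for regrouped cells or another fold. These counts therefore show only how the calls moved and cannot be set against a background. With at least 500 genes per cell they were 0 for precursor-like over progenitor-like cells and 3 for neuron-like over precursor-like cells at 28 hpf, 1 by top2a status at 28 hpf and 0 at 60 hpf, and 2 for 60 hpf over 28 hpf in progenitor-like cells. With at most 4000 genes and 20% mitochondrial UMIs they were 4 for precursor-like over progenitor-like cells at 28 hpf, 5 for neuron-like over precursor-like cells at 60 hpf, 1 by top2a status at 28 hpf and 3 between stages in progenitor-like cells. Without predicted doublets precursor-like over progenitor-like cells gave 5 at 60 hpf and 4 at 28 hpf, and top2a status at 28 hpf gave 1. With both libraries clustered together precursor-like over progenitor-like cells gave 5 and 4, neuron-like over precursor-like cells 2 at 60 hpf, both higher (cdkn1a and ccnd2a), and 0 at 28 hpf, and top2a status 2 and 1. At Louvain resolution 2, and with no variable gene left out of the clustering, precursor-like over progenitor-like cells at 60 hpf gave 5 and top2a status at 60 hpf 2, and with all variable genes neuron-like over precursor-like cells at 60 hpf gave 0. With a mean over cells neuron-like over precursor-like cells at 28 hpf gave 3. At 1.5-fold precursor-like over progenitor-like cells gave 5 at 60 hpf and 4 at 28 hpf, neuron-like over precursor-like cells 6 and 3, top2a status 2 and 2, and 60 hpf over 28 hpf in progenitor-like cells 5. With top2a by at least 3 UMIs the count at 60 hpf was 1, and it was lower (ccnd2a), and with mki67 the counts were 2 at 60 hpf and 1 at 28 hpf. With motor neuron-like cells alone, chosen after seeing the data, neuron-like over precursor-like cells at 28 hpf gave 6. Of the 16 called ratios, 2 changed sign: ccnd1 in neuron-like over precursor-like cells at 60 hpf, 0.27 with both libraries together and 0.77 with all variable genes, and ccnd2a in neuron-like cells at 60 hpf over 28 hpf, 0.030 in motor neuron-like cells alone. Cells below the median immediate early level were too few to give a value by top2a status at 60 hpf. With a floor of 50 UMIs in place of 20, 4 of the 8 counts over all genes changed by more than 1.5-fold. Fewer genes are then compared, and the shares at that floor are not given here. Of 636 alternative ratios, 359 moved by less than the counting interval, 274 by more with the sign of called values kept, and 3, all of called values, turned. The sign also changed under at least 1 alternative for 29 of the 48 ratios that were not called, among them ccnd2a in neuron-like over precursor-like cells at 60 hpf (-1.26 to 2.09) and btg2 in precursor-like over progenitor-like cells at 28 hpf (-0.50 to 0.18). The causes were not tested. Low counts limit cdkn1a, ccnd1 and ccnd2a in the precursor-like cells of 60 hpf, which had 1, 34 and 13 UMIs.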
